A study of Mus musculus with 25 samples.

Results

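The circadian clock genes Per1, Per2, Per3, Cry1, Cry2, Clock, Arntl, Nr1d1, Nr1d2 and Dbp were examined in the CA1 region of the hippocampus of mice that had or had not been handled as pups. All 10 genes were measured, by the 23 probe sets of the Affymetrix Mouse 430_2.0 array that its annotation names for one of these genes alone, out of 45037 probe sets other than controls. They are 10 of 18193 genes with a probe set of their own. Of the 23 probe sets, 18 belonged to the brighter 50% by mean signal. Every gene had at least 1 among these.

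The clock is a loop of transcription and feedback that runs in most cells of the body. CLOCK and BMAL1, the protein made from Arntl, bind together to E-box sequences and activate the Per, Cry, Nr1d and Dbp genes. PER and CRY proteins return to the nucleus and inhibit CLOCK and BMAL1, while REV-ERB alpha and REV-ERB beta, made from Nr1d1 and Nr1d2, repress Arntl. DBP activates genes through D-box sequences. In most mouse tissues the transcripts of the Per, Nr1d and Dbp genes therefore peak in one part of the day and that of Arntl in the opposite part, and in the hippocampus such rhythms are known to accompany memory.

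The study used female mice of the inbred strain Balb c/J. Handled pups were separated from the mother for 15 min a day from postnatal day 1 to 14. Non-handled mice were raised under standard conditions. At 8 weeks the mice went through behavioral tests, and CA1 was dissected 2 weeks later. RNA of 7 handled and 10 non-handled mice was prepared with RNA/DNA columns and that of 4 handled and 4 non-handled mice with Trizol, with 1 array for each of the 25 mice. Extraction was read from where a mouse stands in the sample list of the labels, and the resulting group sizes match the design text. The mice came from fewer litters than there were mice, and a litter was handled or non-handled as a whole. Which litter a mouse came from and the hour at which it was killed are not given in the sources used here. All p-values treat mice as independent, littermates included, so those for handling may be too small. All were kept on a cycle of equal light and dark.

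All levels are MAS 5.0 signal, a linear intensity. Mean signal per array ran from 737 to 910, and the number of arrays limits the precision of every mean. No 2 arrays held the same values, and the mean correlation of an array with the other arrays was between 0.848 and 0.894 on the log2 scale. The variance of the natural log of signal within an array differed with handling. With columns it was 3.82 to 4.24 in handled and 2.88 to 3.76 in non-handled mice. With Trizol it was 3.19 to 3.71 in handled and 2.85 to 3.18 in non-handled mice. One mouse, NH162 (non-handled, columns), stood apart in a measure of RNA quality, the natural log of the ratio of 3' to 5' signal of Actb (beta-actin), which was 2.24 in this mouse against a median of 1.21 over all mice. Results on Cry2, Dbp and Nr1d2 that NH162 moved are given with and without it. All 5 markers of CA1 pyramidal neurons gave signal in every mouse, Wfs1 between 5302 and 19148, with a sum of 20033 to 40102. The sums of 5 dentate and 4 CA3 markers were 514 to 1378 and 866 to 2153, and since probe sets differ in brightness these sums give no make-up of the tissue. In bulk tissue, fewer cells of a type and less RNA per cell cannot be told apart.

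The loop is known to run through short sequences in promoters. RefSeq promoter windows (GRCm38.p6) were given for 9 of the 10 genes, 13 windows in all, and Per2 was named only. The 250 bases before the start of transcription were searched on both strands for the E-box CACGTG, the E'-box CACGTT, the D-box TTANGTAA, the cyclic AMP response element TGACGTCA and AGGTCA, which ROR and REV-ERB proteins bind. A match was in 7 of the 13 windows, and the share of all windows with a match to any of these strings was not counted. The 5 printed here show each string that was found, in capitals, and include those of Per1, Cry1, Cry2 and Nr1d2, whose signal is also compared in pairs across mice. Per1 has a further window, without a match.
Per1 (chr11:69098699-69098948, plus strand): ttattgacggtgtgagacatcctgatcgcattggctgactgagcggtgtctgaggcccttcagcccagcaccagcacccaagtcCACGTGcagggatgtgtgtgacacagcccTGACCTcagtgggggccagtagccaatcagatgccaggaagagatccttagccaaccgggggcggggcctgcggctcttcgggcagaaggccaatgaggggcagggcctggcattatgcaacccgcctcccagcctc
Cry1 (chr10:85185055-85185304, minus strand): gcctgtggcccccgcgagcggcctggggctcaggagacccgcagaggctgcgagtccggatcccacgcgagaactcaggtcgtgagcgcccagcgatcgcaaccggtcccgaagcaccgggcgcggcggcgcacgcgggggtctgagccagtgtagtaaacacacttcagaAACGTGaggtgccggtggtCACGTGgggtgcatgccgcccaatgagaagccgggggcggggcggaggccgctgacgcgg
Per3 (chr4:151044666-151044915, minus strand): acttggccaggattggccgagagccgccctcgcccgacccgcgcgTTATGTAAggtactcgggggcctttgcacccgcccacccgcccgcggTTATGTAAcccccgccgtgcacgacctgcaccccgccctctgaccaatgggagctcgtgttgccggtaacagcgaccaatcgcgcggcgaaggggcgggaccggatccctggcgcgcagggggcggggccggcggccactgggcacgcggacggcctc
Cry2 (chr2:92434070-92434319, minus strand): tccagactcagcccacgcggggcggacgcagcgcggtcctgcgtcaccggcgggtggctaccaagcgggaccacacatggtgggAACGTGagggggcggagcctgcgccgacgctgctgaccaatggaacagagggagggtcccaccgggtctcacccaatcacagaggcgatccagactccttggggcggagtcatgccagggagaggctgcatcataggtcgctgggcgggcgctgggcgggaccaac
Nr1d2 (chr14:18239107-18239356, minus strand): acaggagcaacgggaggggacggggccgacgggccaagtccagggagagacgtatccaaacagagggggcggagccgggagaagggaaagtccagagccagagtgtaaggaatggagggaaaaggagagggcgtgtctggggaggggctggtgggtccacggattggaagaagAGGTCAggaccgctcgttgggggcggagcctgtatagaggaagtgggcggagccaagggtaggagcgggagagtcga
The E-box CACGTG was in 2 of the 13 windows, those of Per1 and Cry1, and in 6.02% of all 32851 windows of the same length. The E'-box was in the windows of Cry1, Cry2 and Nr1d1, against 3.85% of all windows. The D-box occurred 2 times in the Per3 window, as TTATGTAA, and in 2.06% of all windows. AGGTCA was in the windows of Per1, Clock and Nr1d2 on one or the other strand, against 14.0% of all windows, and the cyclic AMP response element was in none of the 13 (1.55% of all). Dbp and Arntl had no match in these 250 bases.

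**Figure D1:**
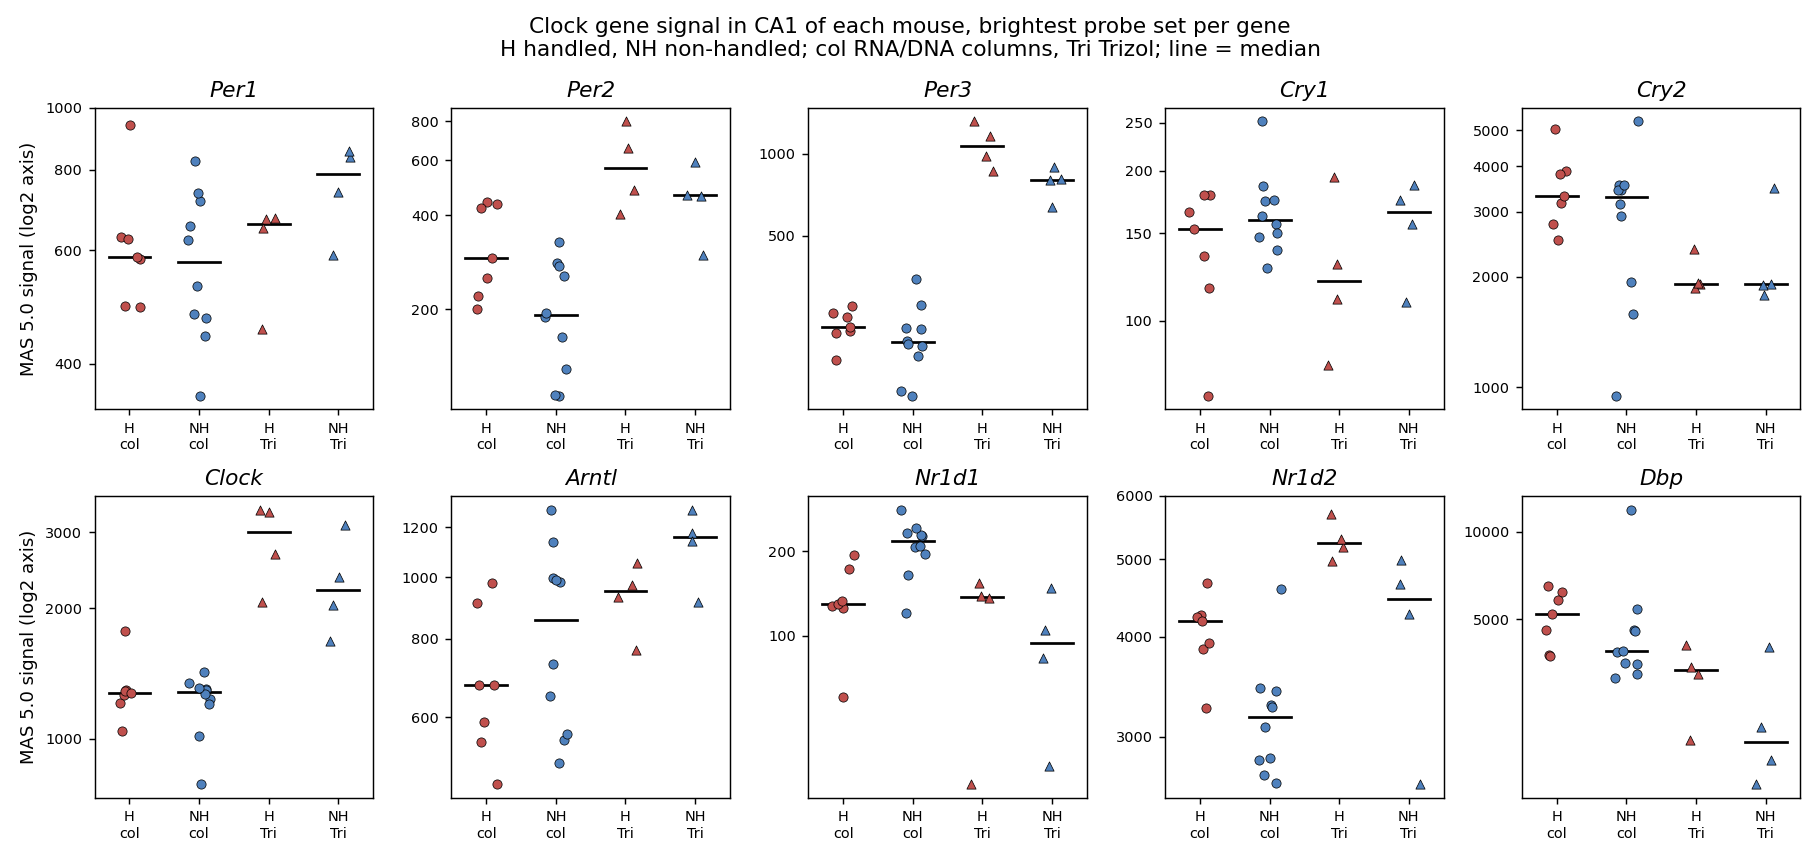
MAS 5.0 signal (log2 axis) of the brightest probe set of each clock gene in each mouse (points), for handled and non-handled mice with RNA from columns (circles) or Trizol (triangles), with the median of each group as a line. Per3 lies between 641 and 1319 in all Trizol mice and does not exceed 346 in column mice, and NH162 has the highest Dbp signal at 11913.

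Handled mice were compared with non-handled mice for single probe sets. Over all 45037 probe sets, 5185 (11.5%) passed an adjusted p of 0.05 from limma with extraction as a term, 1614 higher and 3571 lower in handled mice. The higher ones were 3.58% of probe sets tested. Among the 23 clock probe sets, 2 passed (Nr1d2 and Per2), both higher in handled mice. This is no larger a share than that of calls in either direction over all probe sets. The median log2 change was 0.08 over the 23 clock probe sets, 12 of them higher in handled mice, and -0.15 over all probe sets, of which 16077 were higher. After quantile normalization the median of all probe sets moved to 0.02 and that of the clock probe sets to 0.14, and with the mean and variance of all arrays made equal to 0.03 and 0.16. The split of all calls moved with the scaling too, to 1319 higher and 1595 lower after quantile normalization and to 1726 higher and 1850 lower with scaled arrays.

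Nr1d2, which encodes the repressor REV-ERB beta, rose with handling in its brighter probe set (1416958_at). With columns its signal ran from 3262 through a median of 4185 to 4666 in 7 handled mice, against 2625, 3179 and 4588 in 10 non-handled mice. With Trizol it was 4973, 5174, 5299 and 5702 in handled mice, against 2619, 4272, 4653 and 4990 in non-handled mice. The groups overlapped under both methods. In columns the highest non-handled value was that of NH162, and the next highest was 3457, below all but 1 of the handled mice. With extraction as a term, the log2 change was 0.37 (standard error 0.09, adjusted p = 0.00959 from limma). It was 0.35 within columns (adjusted p = 0.0248) and 0.40 within Trizol (adjusted p = 0.781). With each mouse left out in turn the adjusted p from limma stayed between 0.00187 (without NH162) and 0.0222. With the mean and variance of arrays made equal the log2 change was 0.25 with an adjusted p of 0.106, and with array variance as a covariate 0.39 with an adjusted p of 0.355. Array variance did not overlap between handled and non-handled mice under either method, so it and handling are hard to separate in that fit. Calls over all probe sets numbered 67 there, in place of 5185. The dimmer probe set of Nr1d2 (1416959_at), with signal between 10.8 and 112, gave 0.08 (standard error 0.39).

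Nr1d1, the gene of the related repressor REV-ERB alpha, was not called over all mice. In columns its signal ran from 60.9 through 130 to 194 in handled mice, and from 120 through 217 to 280 in non-handled mice. With Trizol it was 29.9, 136, 139 and 154 in handled mice and 34.6, 83.7, 105 and 148 in non-handled mice. Handled mice thus had lower medians with columns and higher ones with Trizol. The lowest handled values, 60.9 in H108 with columns and 29.9 in H130 with Trizol, stood apart from their groups. Over all mice the log2 change was -0.38 (standard error 0.26, adjusted p = 0.345 from limma), and -0.25 without H108. Within columns it was -0.68 and passed (adjusted p = 0.0398), and within Trizol it was 0.24 (adjusted p = 0.954). The difference between these effects was -0.92 (standard error 0.53) and did not pass (adjusted p = 0.730). At this interaction, 23 of 45037 probe sets were called (0.0511%), none of the 23 clock probe sets among them. Within columns alone, 1964 probe sets (4.36%) were called higher and 3444 (7.65%) lower in handled mice, 1 clock probe set in each direction (Nr1d2 up and Nr1d1 down). Within Trizol 0 of 45037 were called (0%), with 2870 at an unadjusted p under 0.05 from limma. Handled and non-handled arrays within columns did not overlap in variance, and no fit within columns used scaled arrays or left out a mouse. The part of array variance in the column calls of Nr1d2 and Nr1d1 was not tested.

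Among the genes of the PER inhibitors, Per2 rose. Its brightest probe set (1417602_at) had signal from 200 through 293 to 441 in handled mice, against 106, 192 and 328 in non-handled mice with RNA from columns. With Trizol it was 404, 483, 655 and 801 in handled and 299, 462, 466 and 591 in non-handled mice. Handled mice had the higher median under both methods, and the groups overlapped. The log2 change was 0.60 (standard error 0.19, adjusted p = 0.0381 from limma), 0.71 within columns (adjusted p = 0.0554) and 0.36 within Trizol (adjusted p = 0.821). The call was lost without any one of 10 mice, with an adjusted p up to 0.0835 (without H109). With array variance as a covariate, which is hard to separate from handling, the change was 0.20 (adjusted p = 0.885). The other probe sets of Per2 went the opposite way without passing, with -0.47 (standard error 0.28) for 1457350_at and -0.49 (standard error 0.54) for 1417603_at.

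Per1 and Per3 were not called. Per1 had signal from 491 through 586 to 940 in handled and from 357 through 576 to 827 in non-handled mice with columns, and 454, 649, 672 and 673 in handled against 589, 738, 839 and 856 in non-handled mice with Trizol. Its log2 change was -0.03 (standard error 0.13), a sign that turned with scaled arrays (0.03). The brightest probe set of Per3 had a log2 change of 0.27 (standard error 0.13, adjusted p = 0.182 from limma), with 863, 982, 1160 and 1319 in handled mice and 641, 799, 807 and 892 in non-handled mice with Trizol. Only 1 of these handled mice lay within the range of the non-handled mice. In columns it ran from 175 through 231 to 277 in handled and from 129 through 203 to 346 in non-handled mice. The other 5 probe sets of Per3 had changes between -1.10 and 0.36, none called.

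The CRY inhibitors and the activators were not called either. Cry1 was at 70.8 to 195 in handled and 109.05 to 252 in non-handled mice, with a log2 change of -0.28 (standard error 0.18, adjusted p = 0.307 from limma). Cry2 was at 1862 to 5055 in handled and 949 to 5294 in non-handled mice, with a change of 0.19 (standard error 0.18), which was 0.07 without NH162 and -0.04 with the 3' to 5' ratios as covariates. Arntl, the gene of BMAL1, was at 470 to 1054 in handled and 507 to 1280 in non-handled mice, with a change of -0.26 (standard error 0.14, adjusted p = 0.222 from limma). Its second probe set gave -0.58 (standard error 0.33). For Clock the change was 0.18 (standard error 0.11, adjusted p = 0.279), and of its 4 probe sets 1418659_at had the lowest adjusted p, with 0.33 (standard error 0.12, adjusted p = 0.0662 from limma).

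Dbp, an output gene of the clock, ran from 3742 through 5201 to 6533 in handled mice, against 3151, 3880 and 11913 in non-handled mice with columns. With Trizol it was 1930, 3243, 3439 and 4083 in handled and 1356, 1637, 2138 and 4000 in non-handled mice. The log2 change was 0.31 (standard error 0.18, adjusted p = 0.244 from limma). NH162 held the highest value of all mice, and without it the change was 0.42 and passed (adjusted p = 0.0449). Without any one of the other 24 mice the change did not pass. The second probe set of Dbp gave 0.15 (standard error 0.17) with all mice, and its change without NH162 is not given here.

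**Figure D2:**
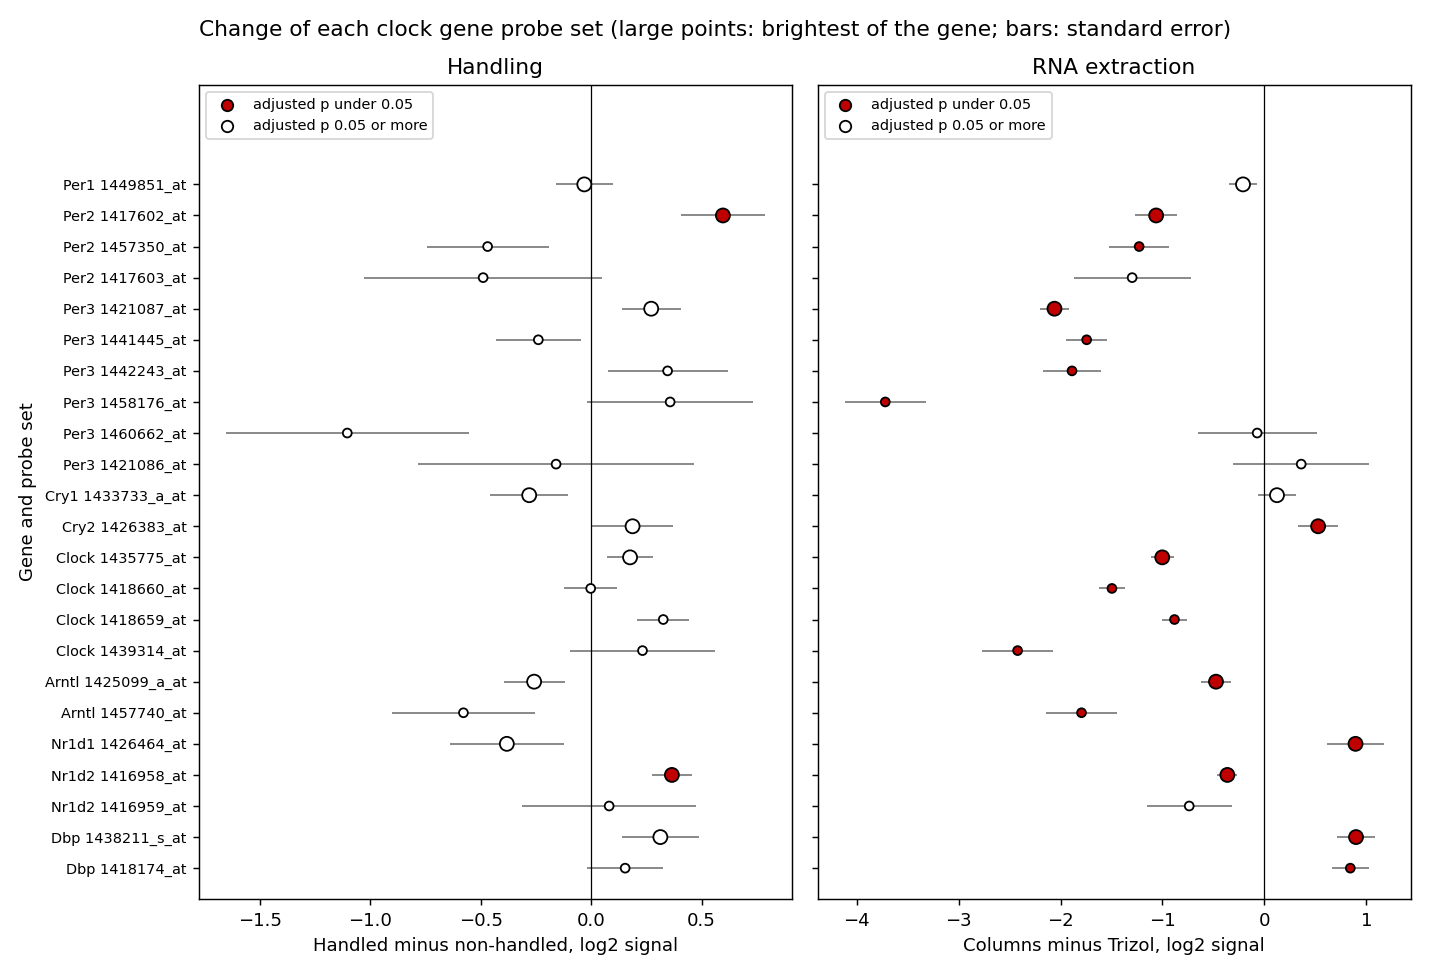
Log2 change of the 23 clock probe sets (points) with standard error (bars) from limma, handled minus non-handled with extraction as a term (left) and columns minus Trizol with handling as a term (right). Filled points have an adjusted p under 0.05: Nr1d2 at 0.37 and Per2 at 0.60 for handling, and 17 probe sets for extraction. The lowest is -3.72, for a Per3 probe set of low signal in column mice.

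Genes around the core loop were described by lists. Of 17 accessory clock genes measured, 1 passed for handling, Rora, an activator of Arntl, which rose by 0.30 (standard error 0.10, adjusted p = 0.0440 from limma). The list had a median change of -0.06, with 7 of 17 higher. Timeless was at 1.14 (standard error 0.39, adjusted p = 0.0521), Bhlhe41, a repressor at E-boxes, at -0.73 (adjusted p = 0.101) and Arntl2, a relative of Arntl, at -0.71 (adjusted p = 0.120). Of 12 genes that respond to glucocorticoids, none passed and the median was 0.11. None of 7 temperature-responsive genes passed either (median 0.13), with Cirbp, a cold-induced RNA-binding protein, at 0.54 (adjusted p = 0.113 from limma). Of 12 activity-responsive genes, Egr4, an immediate early transcription factor, passed and fell by 1.35 (standard error 0.24, adjusted p = 0.000351), the median was -0.16 and 1 of 12 was higher in handled mice, beside a median of -0.15 over all probe sets. Of 37 markers of cell types, 7 passed for handling, where 11.5% of all probe sets did. Each marker stood by its brightest probe set, and 4314 of 22518 passed in the upper 50% of mean signal. That is no smaller a share than 7 of 37. Among 5 interneuron markers, Gad2 rose by 0.86 and Gad1 by 0.30, and Pvalb fell by 0.32. Sst (-0.11) and Vip (-0.04) were not called. The summed signal of the 5, in which Gad1 was the brightest, was 15800 to 19433 in handled mice with columns. It was 11467 to 16681 in non-handled mice with columns. With Trizol it was 13259 to 19670 in handled against 11991 to 14662 in non-handled mice. Of 4 astrocyte markers Aqp4 passed (0.32), of 4 microglial markers P2ry12 passed (0.24), and Cldn5 of endothelial cells (1 of 3) and Folr1 of choroid plexus (1 of 4) fell by 0.49 and 0.86. No marker of CA1, dentate or CA3 neurons or of oligodendrocytes passed, out of 17 measured. The part of these cells in the change of Nr1d2 and Per2 was not tested.

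More clock probe sets were called for RNA extraction than for handling. Of the 23 clock probe sets, 17 differed between columns and Trizol (adjusted p under 0.05 from limma), where 17930 of 45037 (39.8%) did in all. Of the 17, 4 were higher with columns (16.5% of all probe sets) and 13 lower (23.3%). After quantile normalization the split of the clock probe sets was the same, while that over all probe sets turned to 10756 higher and 8091 lower, and the median of all moved to 0.16 where it had been -0.16. In the upper 50% of mean signal, 16 of the 18 clock probe sets passed against a background of 61.6%. Per3 had the largest change among the brightest probe sets, with signal of 129 to 346 in the 17 column mice and 641 to 1319 in the 8 Trizol mice, a log2 difference of -2.06 (standard error 0.14). No column mouse reached a Trizol mouse. A further 3 of the other 5 Per3 probe sets passed in the same direction, from -3.72 to -1.74. The first of these values is from 1458176_at, with signal of 6.81 to 103 in column mice and 290 to 490 in Trizol mice. At such low signal with columns the size of its difference is uncertain. All 4 probe sets of Clock were lower with columns, from -2.42 to -0.88, and the brightest was at 787 to 1771 in column mice against 1679 to 3379 in Trizol mice. Per2 (-1.06), Arntl (-0.48) and Nr1d2 (-0.36) were lower with columns too. Dbp went the other way, at 3151 to 11913 in column mice and 1356 to 4083 in Trizol mice, with 0.90 (standard error 0.19). Its second probe set gave 0.84. Nr1d1 (0.89) and Cry2 (0.53) were also higher with columns, and Per1 (-0.21, adjusted p = 0.247) and Cry1 (0.12, adjusted p = 0.659) did not pass. With the 3' to 5' ratios of Gapdh and Actb as covariates, 11 clock probe sets passed in place of 17, and 11288 of all probe sets in place of 17930. The median difference of the clock probe sets was -1.04 in that fit and -0.88 without the ratios. Arntl (-0.63) and Nr1d1 (1.01) no longer passed, with larger standard errors (0.26 and 0.50 in place of 0.15 and 0.28). The natural log of the 3' to 5' ratio of Gapdh was 0.724 to 1.19 with columns and 1.04 to 1.35 with Trizol. Of the 37 markers of cell types, 18 were called higher and 4 lower with columns, against 16.5% and 23.3% of all probe sets. Called higher were 4 of 4 astrocyte, 3 of 3 oligodendrocyte, 4 of 5 CA1, 3 of 4 microglial, 2 of 5 interneuron, 1 of 4 CA3 and 1 of 3 endothelial markers. Called lower were Man1a of the CA1 list (-0.30), Prox1 of the dentate list (-0.66), and Cpne4 (-1.16) and Nectin3 (-0.50) of the CA3 list. The summed signal of microglial markers was 14455 to 23834 with columns and 6610 to 10118 with Trizol, and that of astrocyte markers 29750 to 48937 with columns and 22365 to 30584 with Trizol. The part of these cells in the clock gene differences was not tested.

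These genes are known to differ together with the time of day, so each member was followed across mice after the mean of each handling-by-extraction group had been subtracted. The residual SD on the log2 scale was 0.54 for Cry2 and 0.51 for Dbp, above 99.2% and 99.1% of the probe sets nearest in mean signal. Without NH162 the SDs were 0.42 and 0.40, at the percentiles 98.4 and 97.7. For Arntl (0.39) and Per2 (0.52) the percentiles were 92.2 and 92.01. The other 6 members lay between the percentiles 17.9 (Cry1) and 79.0 (Per1). Nr1d2, with an SD of 0.24, was at 60.4.

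Members that are known to peak together had correlations of both signs across these mice. Over the 15 pairs among Per1, Per2, Per3, Nr1d1, Nr1d2 and Dbp the median Pearson r was -0.02, and 7 of 15 were positive. Over the 12 pairs of Arntl and Clock with these 6 genes it was -0.11, with 4 positive. All 45 pairs had a median of -0.02 with 20 positive. The first principal component of the 10 members held 28.1% of their variance, with Dbp (0.48), Nr1d2 (0.38) and Nr1d1 (0.16) on one side and the other 7 genes on the opposite side. Without NH162 it held 23.7%, and Dbp (0.22) was then on the side of the Per and Cry genes, opposite to Clock, Arntl and Nr1d1. Left-out mice moved the median of the 15 pairs between -0.09 (without NH138) and 0.15 (without H108). The median absolute r of a member with the other 9 ran from 0.137 to 0.243, and with all probe sets from 0.128 to 0.214.

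**Figure D3:**
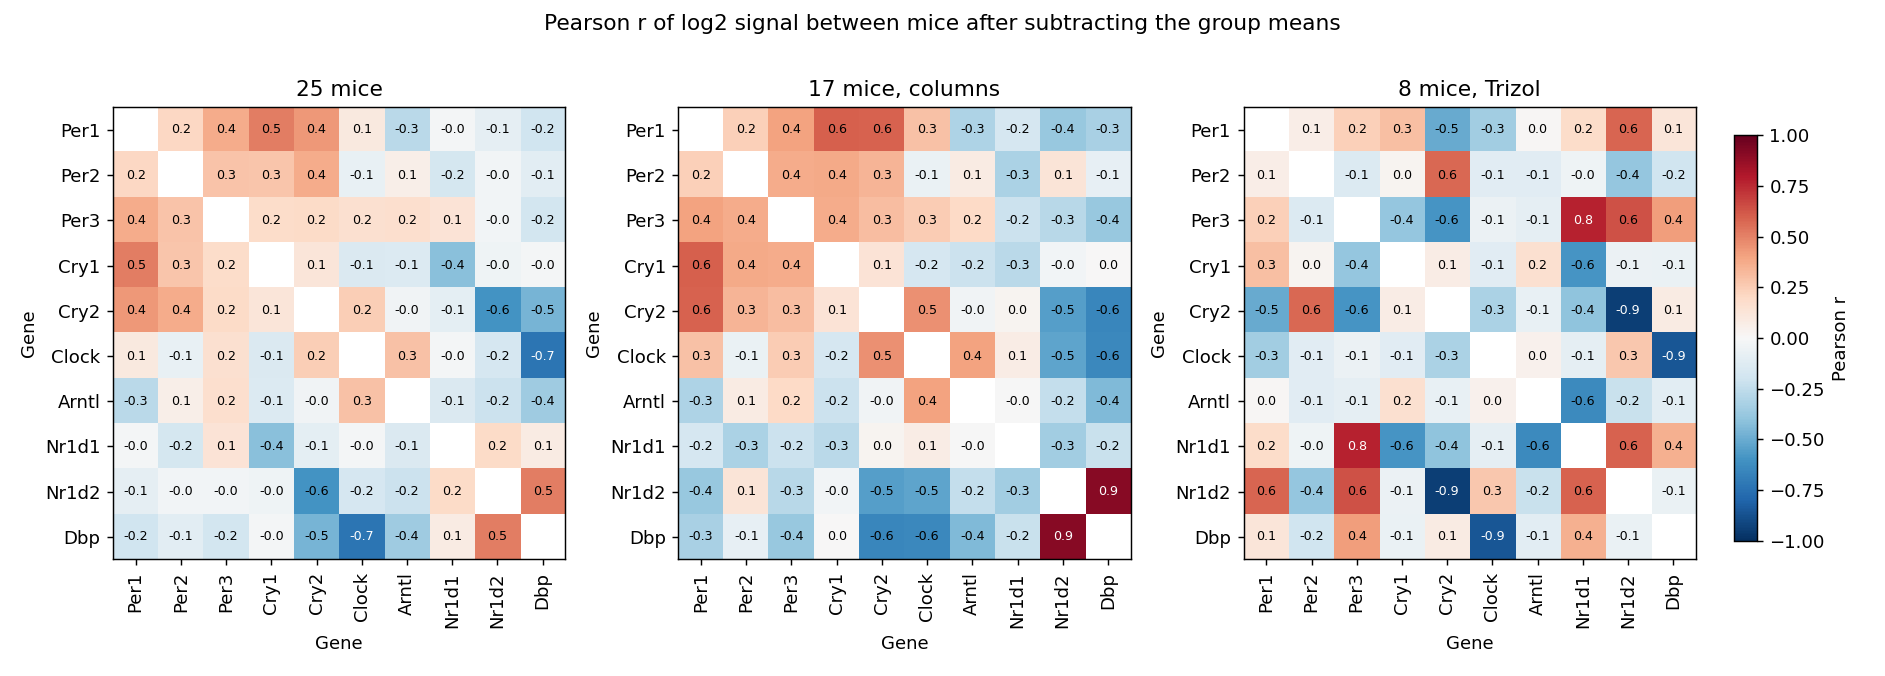
Pearson r between the brightest probe sets of the 10 clock genes across mice, after subtracting the mean of each handling-by-extraction group, in all 25 mice, in 17 mice with RNA from columns and in 8 with Trizol. The pair of Nr1d2 and Dbp has an r of 0.91 in columns and -0.07 in Trizol.

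Of the 45 pairs, 4 (8.89%) had an unadjusted permutation p under 0.05, and these are described in turn. With each member as a covariate in limma, 15 of 90 tests of another member had an unadjusted p under 0.05. Over all probe sets in the same fits the share was 8.76% (39459 of 450347), which is lower than 15 of 90. Each pair enters the 90 tests in both directions, and the tests share genes and mice. For the permutation p of the 45 pairs, no share over all probe sets was computed. After adjustment over all probe sets, 3 of the 90 passed: Nr1d2 with Cry2, Dbp with Clock and Clock with Dbp. Cry2 as a covariate gave calls at 3481 probe sets (7.73%), Dbp at 401 (0.890%) and Clock at 19 (0.0422%). Without NH162 the counts were 1048, 15 and 0, and none of the 90 tests passed. The count for Clock was 0 without any one of 16 of the 25 mice.

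Clock, the activator, and Dbp, a target, ran in opposite directions. The r was -0.73 (100000 permutations within groups, p = 0.000630) and Spearman's rho -0.56 (p = 0.00727), and the adjusted p from limma was 0.0423 with Clock and 0.0249 with Dbp as the covariate. No member was called any more without any one of 17 mice with Clock as the covariate, and without any one of NH162, NH144 and NH147 with Dbp. Within columns r was -0.65 (permutation p = 0.0256) and within Trizol -0.85 (permutation p = 0.0270). NH162 had the lowest Clock signal (787) and the highest Dbp signal (11913). Without it r was -0.61 over all mice (permutation p = 0.0187) and -0.21 within columns (permutation p = 0.521). Without NH162 and NH144, the mice farthest from the median of Clock, it was -0.52 (permutation p = 0.04245). Among the other probe sets of Clock, r with Dbp was -0.47, -0.25 and 0.03.

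Nr1d2 and Dbp, both targets of CLOCK and BMAL1, rose and fell together in mice with RNA from columns. Over all 25 mice r was 0.51 (permutation p = 0.04105) and rho 0.48 (permutation p = 0.0201), and the adjusted p from limma was 0.210 and 0.204. Within columns r was 0.91 (n = 17, permutation p = 1e-05, the smallest that 100000 permutations can give). Without NH162, which held the highest Dbp and the highest non-handled Nr1d2 signal of the column mice, it was still 0.83 within columns (permutation p = 9.00e-05). Within Trizol it was -0.07 (n = 8, permutation p = 0.915). The difference between the methods was not tested. Over all mice r was 0.27 without NH162 (permutation p = 0.448) and 0.44 without NH138 and NH162 (permutation p = 0.0261). After quantile normalization it was 0.40 (permutation p = 0.156). With the second Dbp probe set r was 0.74 over all mice, and with the dim Nr1d2 probe set 0.16.

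Cry2 and Nr1d2, genes of 2 repressors of the loop, were opposed, with r at -0.60 (permutation p = 0.00811) and rho at -0.45 (permutation p = 0.0417). The adjusted p from limma was 0.0259 with Cry2 and 0.125 with Nr1d2 as the covariate, and with Cry2 no member was called without any one of NH155, NH162 and NH138. Within columns r was -0.55 (permutation p = 0.0460) and within Trizol -0.94 (permutation p = 0.0387). Each method had a mouse on which this rested. Without NH162 it was -0.14 within columns (permutation p = 0.621), and without NH138, which held the lowest Nr1d2 and the highest Cry2 signal of the Trizol mice, it was -0.42 within Trizol (permutation p = 0.354). Over all mice it was -0.41 without NH162 (permutation p = 0.0891) and -0.35 without NH162 and NH155 (permutation p = 0.193). In handled mice alone r was 0.28 and in non-handled mice -0.74, a difference that was not tested. Cry2 also followed the 3' to 5' ratio of Actb, the only one of the 40 relations of a member with an array measure in which r and rho both had a permutation p under 0.01 (r = -0.77, p = 0.00036; rho = -0.64, p = 0.00123). Without NH162 and NH146 this r was -0.54. With the ratios of Gapdh and Actb taken out, r of Cry2 with Nr1d2 was -0.38 (permutation p = 0.165), and the probe sets called with Cry2 numbered 287.

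Per1 and Cry1 were positively related, with r at 0.51 (permutation p = 0.0113) and rho at 0.49 (permutation p = 0.0151). The adjusted p from limma did not pass, at 0.579 and 1.00. The r was 0.60 within columns (permutation p = 0.0113) and 0.30 within Trizol (permutation p = 0.474). It was 0.53 without NH162 and H108 (permutation p = 0.00679). It ran from 0.43 to 0.59 with each mouse left out. All 10 pairs among the Per and Cry genes had a positive r over the 25 mice, from 0.12 to 0.51, a grouping made after the values were seen and pairs that share genes. Without NH162 or without NH163, by Spearman's rho and with the 3' to 5' ratios taken out, 9 of 10 were positive, with the lowest at -0.17 in the last of these. In columns 10 of 10 were positive and in Trizol 6 of 10. In handled mice 5 of 10 were positive and in non-handled mice 10 of 10.

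**Figure D4:**
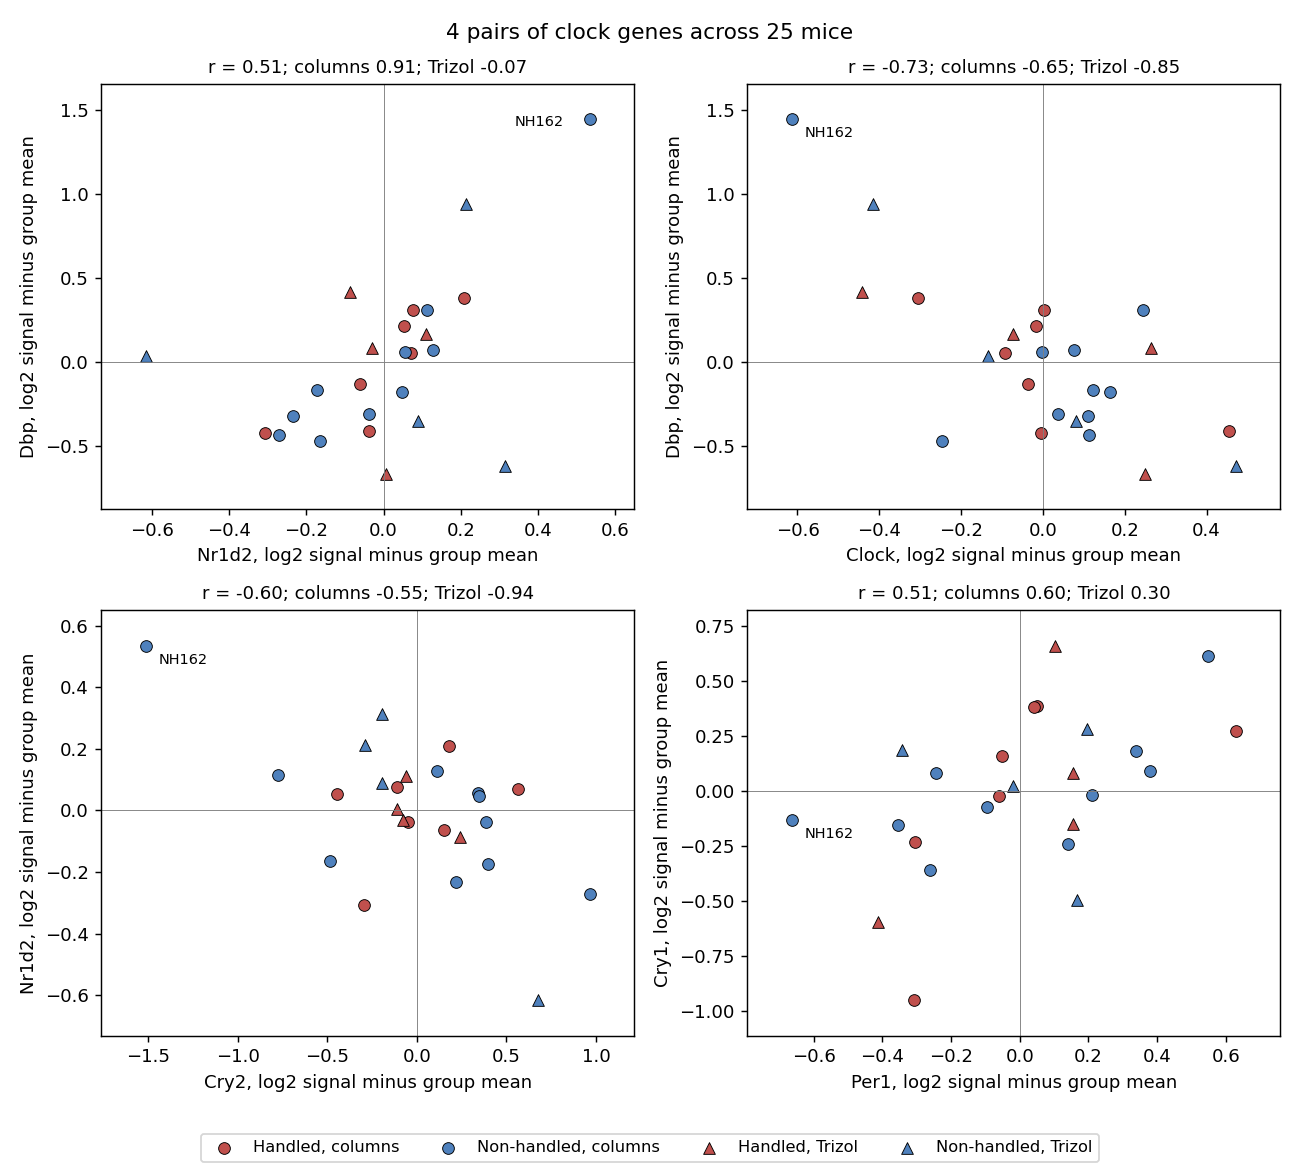
Log2 signal minus the group mean for 4 pairs of clock genes, 1 point per mouse, by handling (color) and extraction (shape), with the r over 25 mice, in columns and in Trizol above each panel. NH162 lies at an edge of each cloud, with Dbp 1.45 above its group mean and Cry2 1.51 below it.

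Different probe sets of one gene followed each other in few cases. Of 13 comparisons of a gene's brightest probe set with another one, r was 0.89 for the Dbp pair (permutation p = 1e-05, the smallest possible; rho 0.83), and 0.54 for Clock with 1418660_at (permutation p = 0.0103; rho 0.55, permutation p = 0.0101). The other 11 lay between -0.39 and 0.33 and had a permutation p of 0.0912 or more. For Per2, Per3, Arntl and Nr1d2 the pattern across mice thus rests on 1 probe set each, and Per1, Cry1, Cry2 and Nr1d1 have only 1. The genes most like a member were given by r alone, over 25 mice, among the brighter 50% of probe sets. For Cry2 these were Madd (0.94), Rbpj (0.94) and Ythdf1 (0.93), and most opposed were Rtraf (-0.94), Psma7 (-0.94) and H2az1 (-0.91). Without NH162 these 6 were between 0.88 and 0.91 and between -0.90 and -0.85. For Dbp, Gtf2h4 (0.87), Sec61a1 (0.85) and Samm50 (0.84) were most alike, and Ralgapa1 (-0.83) most opposed, and without NH162 these were 0.82, 0.74, 0.74 and -0.72. Samm50, whose protein inserts others into the outer mitochondrial membrane, was also among the 3 genes most opposed to Clock (-0.81, and -0.73 without NH162). For Nr1d2 the highest was Timm17a (0.82), for Clock Strbp (0.77), for Arntl Vps13b (0.75), for Nr1d1 Ccser2 (0.82), for Cry1 Reep4 (0.83), for Per1 Mcoln1 (0.78), for Per2 Fastkd5 (0.75) and for Per3 Eml4 (0.75). No member was among the 3 most alike or most opposed genes of another member.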

How the data were processed

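CA1 RNA of 25 mice was measured on Affymetrix Mouse 430_2.0 arrays after 2 rounds of amplification. The deposited intensity values were made by the authors with MAS 5.0 in Affymetrix Expression Console 1.1, a summary of probe brightness per probe set without normalization of the distribution, so differences in spread between arrays remain in them. Of 45101 probe sets 64 controls were left out. Platform annotation named 1 gene for 34958 probe sets, several for 932 and none for 9211.

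Log2 signal of all 45037 probe sets was fitted with limma 3.58.1 (R 4.3.3; eBayes with trend) on handling and extraction, within each extraction method, with their interaction, and with each member as a covariate, and p-values were adjusted by Benjamini and Hochberg over all probe sets tested. Called means an adjusted p under 0.05. For pairs of members, Pearson and Spearman correlations of residuals from the 4 group means were tested by 100000 permutations of mice within groups, two-sided (Python 3.11.15, numpy 2.4.6, scipy 1.17.1). The probe set of highest mean signal stood for a gene. The limma fits were tested on simulated data.

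Named were all members, from each other list those that passed or up to 4 with the smallest p, and up to 3 genes of highest and of lowest r with each member. Members and lists were chosen with earlier results of these data known. Replicate numbers are mouse numbers and pair no mice. Alternatives were quantile normalization, equal mean and variance of arrays, an offset of 16, the brighter 50%, other priors, covariates and weights, other probe sets and each mouse left out.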

Additional observations from a re-analysis of the deposited data

Results flagged for a closer look

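Each of the 10 genes was examined in each of the 4 groups of mice, which gave 40 sets of 4 to 10 values. In 9 of these, the log2 signal of a mouse stood far from the others of its group relative to their range. Chance gives about 5% for a single set, and the sets share mice. Mouse NH162 (non-handled, columns, n = 10) stood apart in Dbp, with a signal of 11913 against 5410 in the next mouse, and in Nr1d2, with 4588 against 3457. Its 3' to 5' ratio of Actb was the highest of all mice, with a natural log of 2.24, and its part in these values was not tested. Mouse H108 (handled, columns, n = 7) had the highest Per1 signal of its group, 940 against 629 in the next mouse, and the lowest Nr1d1 signal, 60.9 against 125.8. In the same group H117 had the highest Clock signal, 1771 against 1296. Among handled mice with Trizol (n = 4), H126 was low in Per1 with 454 against 649, H130 was low in Nr1d1 with 29.9 against 136, and H113 was high in Cry2 with 2376 against 1926. Among non-handled mice with Trizol (n = 4), NH138 was high in Cry2 with 3492 against 1907.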

How the results depend on the processing

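The count of all probe sets called for handling was 2914 after quantile normalization, 2301 without an extraction term and 67 with array variance as a covariate (5185 as reported), and 3568 to 5904 with a mouse left out. Clock probe sets called numbered 1 without a trended prior, 1 without an extraction term and 0 with array variance, and 1 to 3 with a mouse left out. For extraction, 11 clock probe sets were called with the 3' to 5' ratios as covariates, where calls over all probe sets were 11288 in place of 17930 and the median difference of the clock probe sets was -1.04 in place of -0.88, and 16 to 18 with a mouse left out. The interaction gave 7 to 61 calls with a mouse left out, lowest without H130 and highest without H113. The sign of the handling change turned for Per1 with arrays of equal mean and variance (0.033), within columns (0.10) and with some mice left out (range -0.11 to 0.023), for Per2 in its other probe sets (-0.47 and -0.49), for Per3 in 3 others (-0.24, -1.10 and -0.16), for Cry2 with the 3' to 5' ratios (-0.037), array variance (-0.21) and within Trizol (-0.12), for Clock in 1418660_at (-0.0022) and for Nr1d1 within Trizol (0.24). The median r of Arntl and Clock with the 6 other genes was -0.28 in handled mice. The r of Cry2 with Nr1d2 was 0.28 in handled mice, that of Nr1d2 with Dbp -0.067 within Trizol and -0.14 there without NH138, and that of Clock with Dbp 0.026 with Clock 1439314_at. Pairs of 45 under an unadjusted permutation p of 0.05 numbered 7 within columns and 3 to 7 with a mouse left out. Calls with Cry2 as covariate were 287 with the 3' to 5' ratios (1048 to 3673 with a mouse left out), with Dbp 103 (15 to 878), and with Clock 2, and 39 after quantile normalization, 37 with equal mean and variance and 11 with array variance (0 to 24 with a mouse left out). Calls of other members numbered 0 with the 3' to 5' ratios, and 0 to 4 with a mouse left out. The cause of these changes was not tested. The mice left out one at a time in the interaction, extraction and covariate fits, the pairs within a method without NH162 or NH138, and the spread, principal component and most alike genes without NH162, were chosen after seeing the data. No paired analysis was possible because the groups share no replicate numbers. Probe sets of low signal, such as other ones of Nr1d2, Per2 and Per3, limit what can be seen for them.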
